A study of Saccharomyces cerevisiae with 40 samples.

Results

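The 53 genes described here encode factors that assemble the ribosomes of Saccharomyces cerevisiae, and they were picked by systematic name from the 6661 transcripts of the deposited files. They comprised the proteins of the box C/D snoRNPs (3 genes) and box H/ACA snoRNPs (3 genes), the small subunit processome modules UtpA (7 genes), UtpB (6 genes) and Mpp10 (3 genes), 10 other factors of the small subunit or of both subunits, and 21 factors of large subunit assembly. RNA-seq had been run on 40 libraries, 5 of each of 8 groups of haploid yeast taken in mid-log growth. S288c (strain GSY147 in the labels, a laboratory strain) treated with Cr41 in YM, S288c untreated in YM, S288c treated in WYF and S288c untreated in WYF were the groups of that strain, and RM11, a vineyard strain, had the same groups. YM is minimal medium with only carbon and nitrogen sources, and WYF is YM with added tryptophan, tyrosine and phenylalanine, the aromatic amino acids whose synthesis glyphosate blocks. Cr41 is Credit41, a commercial glyphosate herbicide, and treated cultures received it at 0.25% for 90 min. The sample labels give this as a percentage of Cr41, whereas the paper also gives it as a percentage of glyphosate within Cr41. No group received glyphosate alone, so glyphosate and the additives of the product cannot be told apart. All YM libraries were from sequencing lane 2 and all WYF libraries from lane 3, and an effect of the medium cannot be told apart from one of the lane. Nothing in the labels says whether the replicates were separate cultures, and p-values measure the spread between these libraries, which may be technical.

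Ribosomes are built in the nucleolus, where a long precursor RNA is transcribed by RNA polymerase I, chemically modified at positions chosen by small nucleolar RNAs, folded, cut and joined with ribosomal proteins. Box C/D particles methylate ribose and box H/ACA particles convert uridine to pseudouridine, the small subunit processome holds the growing precursor, and a separate succession of GTPases, RNA helicases and scaffold proteins matures the large subunit. The genes of these factors form a regulon in yeast that is known to be transcribed in step with growth and to be reduced under stress, and their promoters often carry the sequence elements named PAC and RRPE.

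The promoter sequences below are shown because the genes were chosen for their function, and the shared upstream words are a feature that the choice did not use. Each promoter was taken as the 300 bases before the start codon in the RefSeq R64 genome, which was available for all 53 genes, and both strands were searched for 2 words. The PAC core was GATGAG, which reads as the word CTCATC on the other strand. The RRPE core was AAAAATTT, which reads as AAATTTTT on the other strand. The 2 words do not overlap each other in letters. The PAC core was found in 51 of the 53 promoters (96.2%), against 18.4% of the other 5948 promoters of the genome, and the RRPE core in 49 (92.5%), against 14.4%. Both words were present in 47 of the 53 (88.7%), against 4.86% of the other promoters, and 0 of the 53 lacked both. The median position of the word's first base was 106 bases before the start codon for PAC (range 57 to 204) and 135 bases for RRPE (range 34 to 224), taking the match nearest to the start codon in each promoter. The windows below belong to the first gene carrying both words among the box C/D, box H/ACA, UtpB and large subunit genes. SPB4 and HAS1 were added as the genes with both words that had the most negative Cr41 values in S288c in YM, and NOP16 as the one with the most negative value in RM11 in WYF. Each window was built on the PAC and RRPE copies closest to each other in the promoter, which need not be those nearest to the start codon. The windows run 5′ to 3′ in the direction of the gene, from 20 bases before the first of these words to 20 bases after the last. Capitals mark that pair alone, and further copies in the windows of NOP1, GAR1, PWP2, SPB4 and HAS1, some of them overlapping the marked word, are left in lower case.
NOP1 (chrIV:427120-427185, plus strand): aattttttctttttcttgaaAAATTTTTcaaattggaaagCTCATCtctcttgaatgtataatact
GAR1 (chrVIII:283398-283454, minus strand): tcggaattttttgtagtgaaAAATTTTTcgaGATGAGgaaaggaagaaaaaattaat
PWP2 (chrIII:223347-223403, minus strand): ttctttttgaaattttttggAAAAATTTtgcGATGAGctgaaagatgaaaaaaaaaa
NOP2 (chrXIV:510377-510434, plus strand): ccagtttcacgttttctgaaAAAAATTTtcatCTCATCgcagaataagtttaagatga
SPB4 (chrVI:146976-147056, minus strand): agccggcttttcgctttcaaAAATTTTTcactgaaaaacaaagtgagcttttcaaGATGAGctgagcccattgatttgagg
HAS1 (chrXIII:851672-851776, minus strand): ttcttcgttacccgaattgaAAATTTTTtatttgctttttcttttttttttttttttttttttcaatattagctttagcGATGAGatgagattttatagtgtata
NOP16 (chrV:156624-156723, plus strand): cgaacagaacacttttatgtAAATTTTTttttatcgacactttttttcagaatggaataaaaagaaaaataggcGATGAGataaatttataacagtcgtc
In 5 of these 7 windows the marked PAC core is in the GATGAG orientation, and in NOP1 and NOP2 it is read as CTCATC. The distance between the first bases of the marked words was 11 bases in GAR1 and PWP2, 12 bases in NOP2, 20 bases in NOP1, 35 bases in SPB4, 54 bases in NOP16 and 59 bases in HAS1. A match is a description of the letters in the window and not a site of binding.

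**Figure D1:**
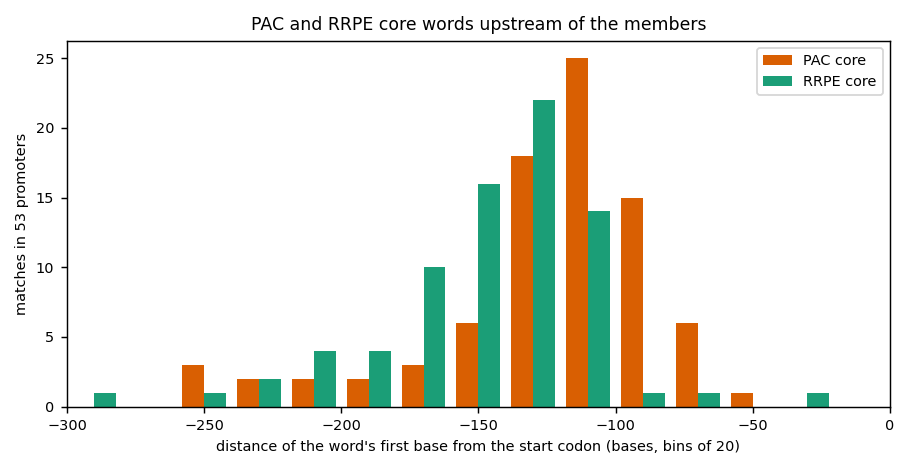
Positions of the PAC core (orange) and RRPE core (green) matches in the 300 bases before the start codon of the 53 genes. The x axis gives the distance of the word's first base from the start codon in bases, in bins of 20, and the y axis gives the number of matches, all matches of a promoter included. The matches of both words were densest between about 80 and 160 bases before the start codon.

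Counts are given as CPM, counts scaled to library size by TMM over the 40 libraries, and differences between groups as log2 fold changes from edgeR's quasi-likelihood F test, whose p-values were adjusted by the Benjamini-Hochberg method over all transcripts tested in a comparison. A transcript was called at an adjusted p under 0.05. All 53 genes passed the filter on low counts in every comparison, and the smallest count of any of them in any library was 37. Library totals were 4224356 to 7866046 estimated counts. The S288c-only gene ASP3-1 was at 48.1 to 598 TPM (Salmon's length-scaled relative abundance) in the 20 S288c libraries and 0 to 1.42 TPM in the 20 RM11 libraries, and the summed level of 4 a-cell genes was 5037 to 14272 TPM over the 40 libraries, against 15.0 to 63.6 TPM for 4 alpha-cell genes. The median correlation of log2 CPM with the other 4 libraries of the group lay between 0.958 and 0.993 over the 40 libraries. It was lowest in the S288c YM Cr41 group, at 0.958 for replicate 4 and 0.970 to 0.977 for the others. Libraries that stood below their own group were RM11 YM Cr41 replicate 5 (0.979, the others 0.992 to 0.993), S288c WYF untreated replicate 4 (0.978, the others 0.986 to 0.988) and RM11 WYF untreated replicate 2 (0.980, the others 0.989 to 0.990). RNA quality was not given. Reads of both strains had been assigned to S288c transcripts, and the part that sequence differences of RM11 play in its counts was not tested. In bulk RNA, a lower level in every cell and fewer cells at a high level cannot be told apart, and the values are shares of each library rather than amounts of RNA per cell.

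The 53 genes ranged widely in level. In untreated S288c in YM, mean levels lay between 22.2 TPM for UTP10 and 897 TPM for RLP7, a 40.4-fold range with a median of 89.9 TPM. RLP7 (YNL002C), a nucleolar relative of a large subunit ribosomal protein, averaged 897 ± 162 TPM (SD, n = 5), NOP15 averaged 449 ± 77.6 TPM and NOP56 averaged 389 ± 40.01 TPM in that group. Untreated S288c in YM was also the group with the highest mean CPM for 43 of the 53 genes. The lowest mean was in RM11 WYF Cr41 for 21 genes, in RM11 YM untreated for 14 and in RM11 YM Cr41 for 10. Across the 8 groups, the highest group mean was 1.88-fold the lowest at the median gene, and at least 2-fold in 17 genes. The smallest range was 1.45-fold in NHP2 and the largest 6.69-fold in NOP16, with means of 69.7 CPM in untreated S288c in YM and 10.4 CPM in RM11 WYF Cr41. EBP2 ranged 3.83-fold, RPF1 3.16-fold and ENP2 3.14-fold. These ranges and the counts of highest and lowest groups were not computed over all transcripts. NOP16, EBP2 and RPF1 act in large subunit assembly, and ENP2 in that of the small subunit.

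**Figure D2:**
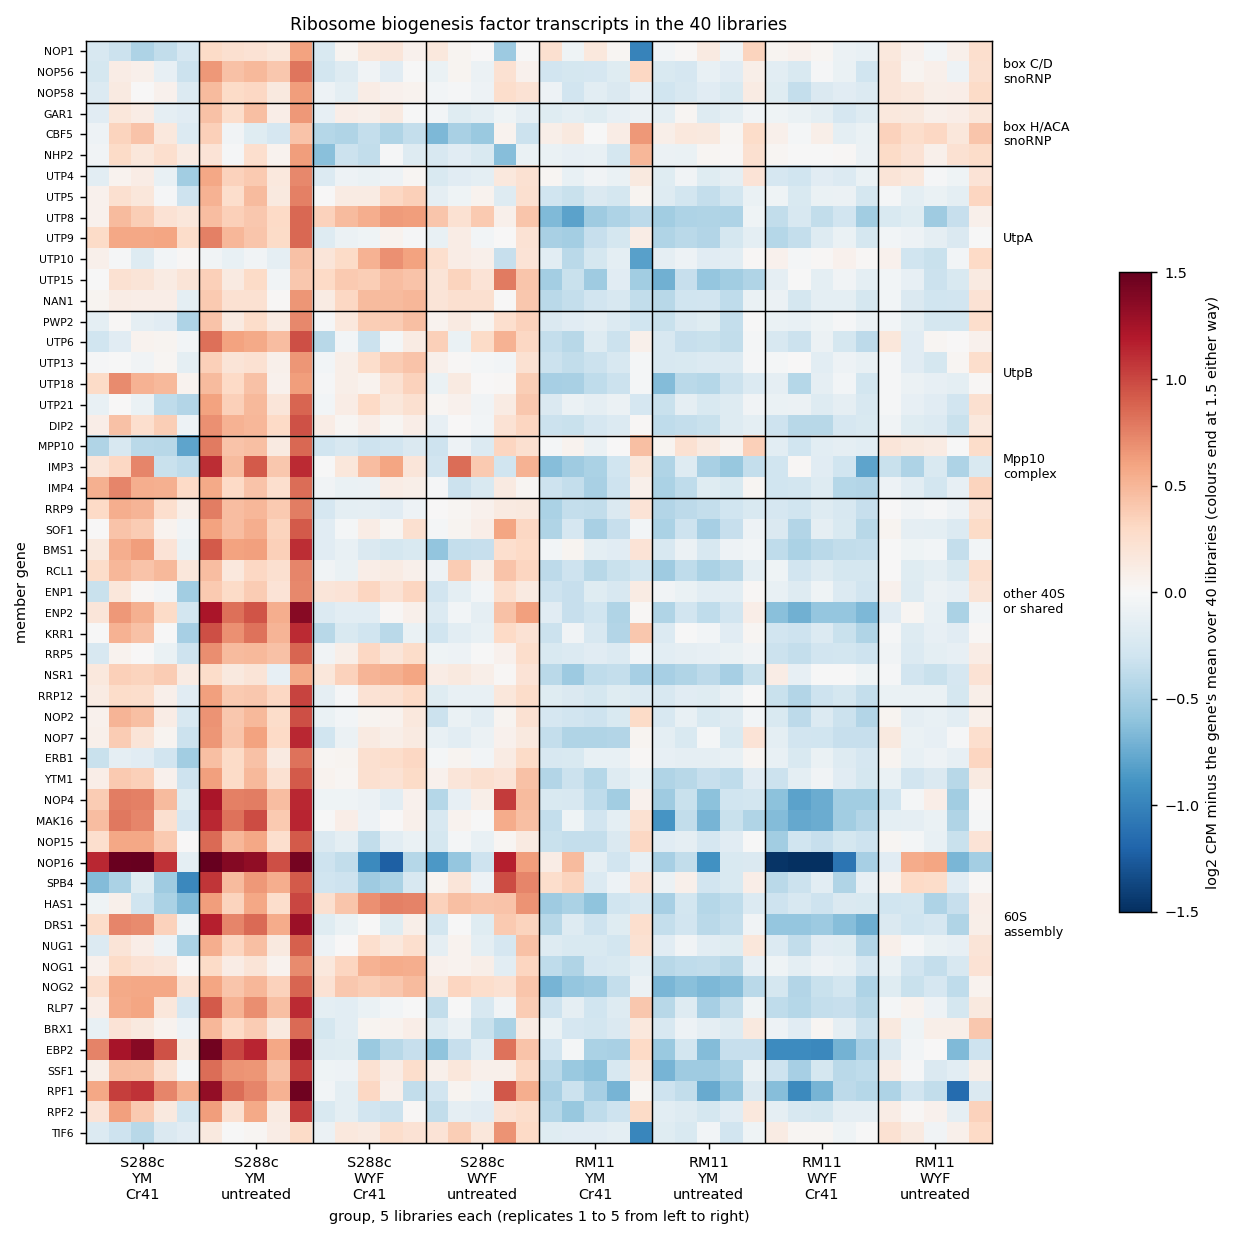
Level of each of the 53 genes in each of the 40 libraries, as log2 CPM minus the gene's mean over all libraries. Rows are genes grouped by complex, columns are libraries grouped by strain, medium and treatment, with Cr41 left of untreated. The columns of untreated S288c in YM are the highest for most genes.

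**Figure D3:**
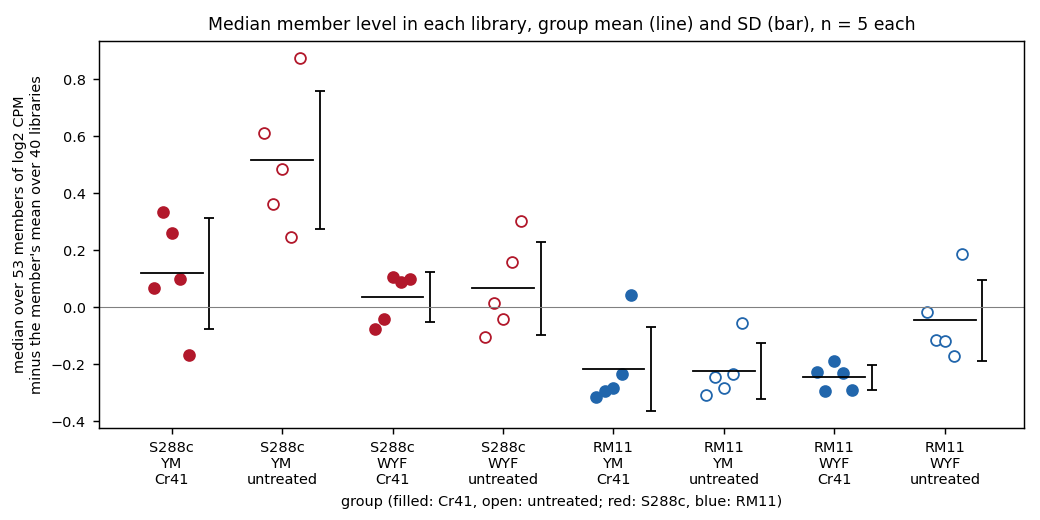
Median of the 53 genes' centred log2 CPM in each library (points), by group, with the group mean and SD. Untreated S288c in YM lay between 0.25 and 0.87, above the S288c YM Cr41 libraries except for the overlap between 0.25 and 0.33, and the RM11 groups lay between -0.31 and 0.19.

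Cr41 lowered most of the 53 genes in 2 of the 4 strain and medium combinations, and few or none in the others. In S288c in YM, 31 of 53 genes fell and 0 rose, against 34.2% of all 5716 transcripts lower and 33% higher. The median log2 fold change of the 53 was -0.39, against -0.0029 for all transcripts tested, and 49 of 53 lay below zero. Without Cr41 replicate 4, the library with the lowest correlation to its group, 27 genes fell and the median was -0.38. The Cr41 and untreated libraries did not overlap, with Cr41 lower, for 16 genes (28.5% of all transcripts), so that share was close to the background. SPB4 alone fell by 2-fold or more, a call made for 8.82% of all transcripts. The extremes were SPB4 at -1.28 and CBF5 at 0.08.

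In S288c in WYF, Cr41 raised 5 genes (UTP8, UTP10, ENP1, NSR1 and NOG1) and lowered 5 (UTP6, MPP10, RRP9, KRR1 and SPB4), against 22.7% of 5581 transcripts higher and 25.4% lower, so that both shares were below the background. The median of the 53 was -0.03, against -0.01 for all transcripts. Single libraries moved these counts to between 3 and 8 higher and between 3 and 10 lower. The count of 10 lower was reached without untreated replicate 1, and the counts of 8 higher and 3 lower without Cr41 replicate 1. Without untreated replicate 4, 4 were higher and 3 lower, and the calls of UTP8, MPP10 and KRR1 were lost. A single fit over all 40 libraries called 3 lower, and limma on log2(TPM + 1) called 2 higher.

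In RM11 in YM, MAK16 alone rose and 0 genes fell, where 7.99% of 5496 transcripts were called higher and 7.28% lower. An unadjusted p under 0.05 was reached by 3 of the 53 in edgeR's test, and DESeq2 called 2 higher and 0 lower. The median was 0.02, against 0.01 for all transcripts. The Cr41 library of replicate 5 bore on this result. Without it, 2 genes were higher (MAK16 and NOP16) and 5 lower (MPP10, ENP1, NOP7, NOP15 and RPF2), the median of the 53 was -0.06, and 926 transcripts in all were higher and 835 lower.

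In RM11 in WYF, 31 of 53 genes fell and 0 rose, against 17.8% of 5469 transcripts lower and 17.8% higher. The median log2 fold change was -0.24, against -0.0031 for all transcripts, and 47 of 53 lay below zero. Without untreated replicate 2, which stood below its group in correlation, 31 genes fell and the median was -0.26. For 18 genes (11% of all transcripts) the Cr41 libraries all lay below the untreated ones. NOP16 alone fell by 2-fold or more, a call made for 0.457% of all transcripts. The extremes were NOP16 at -1.33 and NSR1 at 0.11. In a single fit over all 40 libraries, which shares its estimate of the spread with the other groups, 13 were lower. The share of all transcripts lower in that fit is not given here, so the 13 cannot be set beside the 17.8%.

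Counts of 0 risen in S288c in YM and in RM11 in WYF were also 0 with DESeq2, where edgeR's unadjusted p was under 0.05 in either direction for 35 and 33 of the 53, and DESeq2 called 34 and 33 lower.

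Of the 31 genes lower in S288c in YM and the 31 lower in RM11 in WYF, 19 were shared (61.3% of each list), and 10 genes were in neither. Each list held 58.5% of the 53 genes, so the shared part was close to what unrelated lists of this size would share. The shared genes included NOP56 and NOP58 of the box C/D particle, GAR1 of the box H/ACA particle, UTP4, UTP6 and MPP10 of the processome, and SPB4, DRS1, NUG1, RLP7, BRX1 and SSF1 of the large subunit pathway. All 5 genes lower in S288c in WYF were among those lower in RM11 in WYF, and they made up 16.1% of that list. Over the 4 comparisons, KRR1, MPP10, SPB4 and UTP6 fell in 3, 16 genes fell in 2, 21 fell in 1 and were not called elsewhere, 2 fell in 1 and rose in another, 4 only rose, and 6 were called in none.

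**Figure D4:**
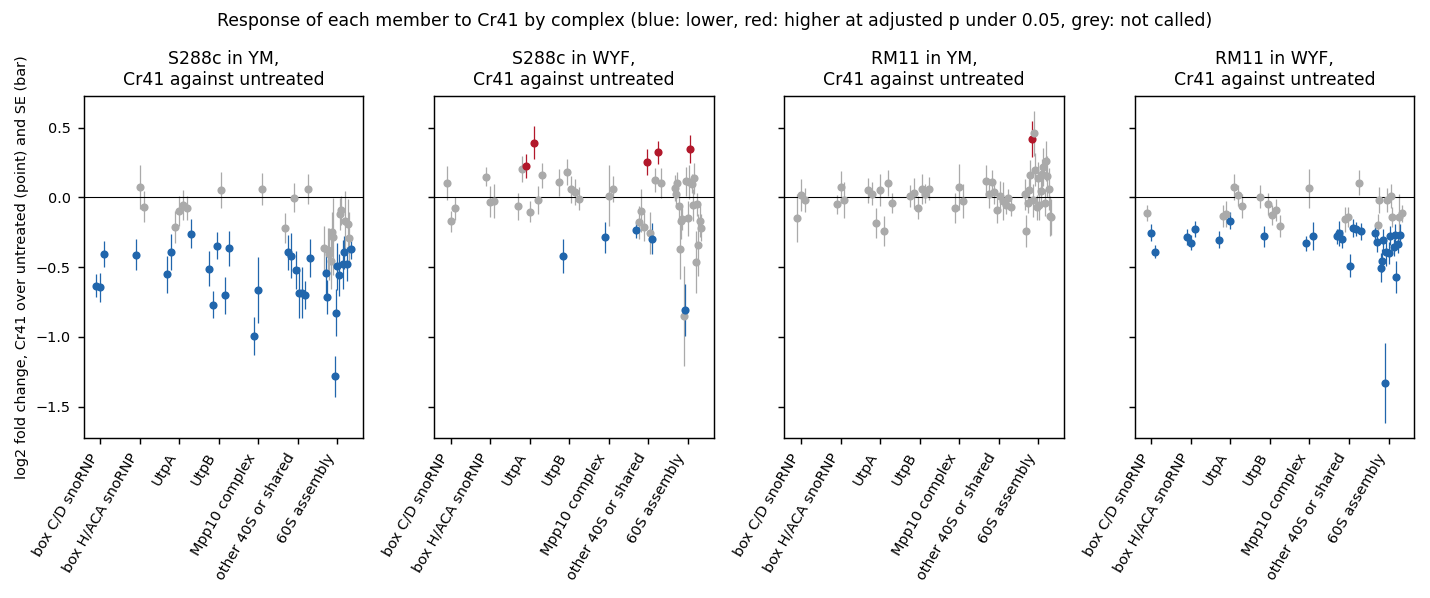
Log2 fold change (Cr41 over untreated) of each of the 53 genes (points, with SE bars) by complex in the 4 strain and medium combinations. Blue marks genes called lower and red genes called higher at an adjusted p under 0.05, and grey marks genes not called. Most points lie below zero in S288c YM and RM11 WYF, and about zero in RM11 YM and S288c WYF.

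The box C/D proteins fell together in S288c in YM, 3 of 3, and in RM11 in WYF 2 of 3 fell. Counts for each complex are to be read beside all transcripts, of which 34.2% fell in S288c in YM and 17.8% in RM11 in WYF. In S288c in WYF 25.4% fell and 22.7% rose, and in RM11 in YM 7.28% fell and 7.99% rose. Shares of complexes this small are coarse. NOP1 (YDL014W, chrIV:427364-428347 on the plus strand of R64) encodes fibrillarin, the methyltransferase of the particle. It had 175, 165, 149.8, 159.5 and 173 CPM in Cr41 libraries of S288c in YM, against 253, 244, 240.4, 233 and 315 CPM in untreated libraries. The groups did not overlap, with the highest untreated value in replicate 5, and NOP1 fell (log2 fold change -0.63 ± 0.09 SE, adjusted p = 3.9e-05). It had 176, 212, 232, 234 and 217 CPM in Cr41 libraries of S288c in WYF, against 230.1, 213, 208, 141 and 206 CPM in untreated libraries (log2 fold change 0.10 ± 0.12 SE, adjusted p = 0.51). These overlapped, and the lowest untreated value was replicate 4, without which the log2 fold change was -0.0046 (adjusted p = 0.97). RM11 in YM gave 244, 197, 231, 211 and 103 CPM in Cr41 libraries, against 200.3, 208, 226, 198 and 260.3 CPM in untreated libraries (log2 fold change -0.15 ± 0.17 SE, adjusted p = 0.62), where the lowest treated value was replicate 5. RM11 in WYF gave 213, 216, 210.4, 195 and 192 CPM in Cr41 libraries, against 230.1, 217, 201, 218 and 247 CPM in untreated libraries (log2 fold change -0.11 ± 0.05 SE, adjusted p = 0.13), and the groups overlapped.

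The core proteins that hold the box C/D RNA, NOP56 and NOP58, fell in both places. NOP56 (YLR197W) had 465, 603, 591, 513 and 447 CPM in Cr41 libraries of S288c in YM, against 879, 757, 782, 738 and 977 CPM in untreated libraries, with no overlap (log2 fold change -0.65 ± 0.10 SE, adjusted p = 0.00017). The log2 fold change of NOP58 was -0.40 there (adjusted p = 0.0025). In RM11 in WYF, NOP56 changed by -0.25 (adjusted p = 0.0048) and NOP58 by -0.39 (adjusted p = 1.1e-05). NOP56 and NOP58 were picked for these sentences after their values were seen.

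The box H/ACA proteins had most of their calls in RM11. In S288c in YM, 1 of 3 fell (33.3%), which was near the 34.2% of all transcripts. In RM11 in WYF 3 of 3 fell, against 17.8% of all transcripts, while 0 of 3 were called in the other 2 combinations. GAR1 (YHR089C), a core protein of the pseudouridylation particle, had 63.6, 80.9, 77.5, 65.3 and 63.9 CPM in Cr41 libraries of S288c in YM, against 97.7, 86.5, 97.9, 76.9 and 113 CPM in untreated libraries (log2 fold change -0.41 ± 0.11 SE, adjusted p = 0.0062). The groups overlapped, because treated replicates 2 and 3 lay above untreated replicate 4. GAR1 had 68.3, 66.7, 64.7, 59.9 and 62.5 CPM in Cr41 libraries of RM11 in WYF, against 80.02, 79.2, 75.5, 76.9 and 80.9 CPM in untreated libraries (log2 fold change -0.28 ± 0.06 SE, adjusted p = 0.0013), and the groups did not overlap. In the other 2 combinations its log2 fold changes were 0.15 in S288c in WYF (adjusted p = 0.082) and -0.05 in RM11 in YM (adjusted p = 0.69). Without Cr41 replicate 1, GAR1 was called higher in S288c in WYF (0.19, adjusted p = 0.033). CBF5 (YLR175W), the pseudouridine synthase, was the highest of the 53 in S288c in YM, with 299, 397, 424, 352 and 272 CPM in Cr41 libraries, against 405, 304, 278, 264 and 424 CPM in untreated libraries (log2 fold change 0.08 ± 0.16 SE, adjusted p = 0.68), and these overlapped widely.

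UtpA binds the start of the precursor RNA. Of its 7 genes, 3 fell in S288c in YM (42.9%, against 34.2% of all transcripts). In RM11 in WYF 2 fell (28.6%, against 17.8% of all transcripts), and in S288c in WYF 2 rose (28.6%, against 22.7% of all transcripts). UTP4 (YDR324C) had 104, 120.4, 125, 107 and 80.7 CPM in Cr41 libraries of S288c in YM, against 174, 148, 153, 129 and 192 CPM in untreated libraries (log2 fold change -0.55 ± 0.13 SE, adjusted p = 0.0026). Every treated value lay below every untreated value. UTP4 had 97.00, 94.2, 103, 100.2 and 108 CPM in Cr41 libraries of RM11 in WYF, against 133, 129.9, 115, 111 and 134 CPM in untreated libraries, again with no overlap (log2 fold change -0.30 ± 0.06 SE, adjusted p = 0.0017). Its log2 fold change was -0.06 in S288c in WYF (adjusted p = 0.61) and 0.05 in RM11 in YM (adjusted p = 0.77).

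UTP10 (YJL109C) was the highest of the 53 in S288c in WYF, with 189, 203, 241, 268 and 254 CPM in Cr41 libraries, against 199, 180.0, 176, 131 and 192 CPM in untreated libraries (log2 fold change 0.39 ± 0.12 SE, adjusted p = 0.016). Untreated replicate 4 was the lowest of all 10, and without it the value was 0.30 (adjusted p = 0.018). Treated replicate 1 lay within the untreated range. In RM11 in YM it was among the 3 lowest, with 149, 126, 139, 151 and 95.1 CPM in Cr41 libraries, against 152, 159, 149, 150.2 and 169.7 CPM in untreated libraries (log2 fold change -0.24 ± 0.11 SE, adjusted p = 0.15). Treated replicate 5 held the lowest value there, and the groups overlapped. UTP8 (YGR128C) rose in S288c in WYF (log2 fold change 0.22 ± 0.09 SE, adjusted p = 0.047). It had 37.5, 34.1, 41.2, 43.1 and 45.3 CPM in Cr41 libraries of RM11 in YM, against 41.5, 43.1, 43.6, 43.2 and 57.2 CPM in untreated libraries (log2 fold change -0.18 ± 0.11 SE, adjusted p = 0.29), and the highest value was that of untreated replicate 5.

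UtpB, which joins next and helps the U3 RNA to pair with the precursor, had 5 of 6 genes lower in S288c in YM and 1 of 6 lower in RM11 in WYF. The first share was 83.3%, against 34.2% of all transcripts, and the second was 16.7%, near the 17.8% of all transcripts. PWP2 (YCR057C) had 169, 189, 169.6, 165 and 134 CPM in Cr41 libraries of S288c in YM, against 250.2, 205, 225, 203 and 307 CPM in untreated libraries (log2 fold change -0.51 ± 0.12 SE, adjusted p = 0.003). The groups did not overlap. It had 173, 173, 179, 184 and 174 CPM in Cr41 libraries of RM11 in WYF, against 181, 168, 155, 155 and 224 CPM in untreated libraries (log2 fold change 0.01 ± 0.08 SE, adjusted p = 0.97), and the values overlapped. UTP6 was the UtpB gene called in RM11 in WYF, at -0.28 (adjusted p = 0.0097), and it also fell in S288c in YM by 0.77 and in S288c in WYF by 0.42 on the log2 scale.

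The Mpp10 module, made of MPP10, IMP3 and IMP4, which associate with the U3 snoRNA, had 2 of 3 genes lower in S288c in YM and 2 of 3 in RM11 in WYF. MPP10 (YJR002W) was the gene with the second most negative value in S288c in YM, with 108, 125, 112, 111 and 85.9 CPM in Cr41 libraries, against 256, 200.1, 203, 163 and 270.3 CPM in untreated libraries (log2 fold change -0.99 ± 0.14 SE, adjusted p = 5.0e-05). The highest treated value lay below the lowest untreated value. MPP10 had 120.2, 126, 119, 122 and 128 CPM in Cr41 libraries of S288c in WYF, against 119, 141, 129, 186 and 175 CPM in untreated libraries (log2 fold change -0.29 ± 0.11 SE, adjusted p = 0.048). That call was lost on leaving out any one of the treated replicates, or of untreated replicates 2, 4 and 5, with an adjusted p of up to 0.12. MPP10 had 133, 121, 133, 135 and 133 CPM in Cr41 libraries of RM11 in WYF, against 169, 165, 162, 148 and 180.5 CPM in untreated libraries, with no overlap (log2 fold change -0.33 ± 0.05 SE, adjusted p = 0.00025). RM11 in YM gave 146, 154, 140.0, 149 and 204 CPM in Cr41 libraries, against 153, 174, 163, 154 and 191 CPM in untreated libraries (log2 fold change -0.08 ± 0.11 SE, adjusted p = 0.69). Treated replicate 5 stood above the other 4 there, and without it MPP10 was lower at -0.19 (adjusted p = 0.035).

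IMP4 and IMP3 were each called in 1 of the 4 combinations. IMP4 (YNL075W) had 71.1, 81.3, 71.2, 70.7 and 60.1 CPM in Cr41 libraries of S288c in YM, against 72.6, 60.2, 65.7, 57.99 and 87.6 CPM in untreated libraries (log2 fold change 0.06 ± 0.12 SE, adjusted p = 0.66), which overlapped. IMP3 (YHR148W) was among the 3 highest in RM11 in WYF, with 10.98, 13.8, 11.99, 10.98 and 7.66 CPM in Cr41 libraries, against 10.7, 9.70, 11.5, 9.76 and 11.5 CPM in untreated libraries (log2 fold change 0.07 ± 0.14 SE, adjusted p = 0.75), and these overlapped as well. In S288c in YM, IMP3 fell (log2 fold change -0.67 ± 0.24 SE, adjusted p = 0.027), while IMP4 fell in RM11 in WYF (log2 fold change -0.28 ± 0.10 SE, adjusted p = 0.044).

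Among the 10 other small subunit or shared factors, 7 fell in S288c in YM, 7 fell in RM11 in WYF, and in S288c in WYF 2 fell and 2 rose. Both shares in S288c in WYF were 20%, against 25.4% of all transcripts lower and 22.7% higher. RRP9 (YPR137W), a protein particular to the U3 particle, had 221, 237, 238, 233 and 248 CPM in Cr41 libraries of S288c in WYF, against 264, 267, 275, 287.6 and 289 CPM in untreated libraries (log2 fold change -0.23 ± 0.06 SE, adjusted p = 0.0034). The treated values all lay below the untreated ones. It had 220.2, 213, 229.6, 221 and 206 CPM in Cr41 libraries of RM11 in WYF, against 262, 254, 258, 248 and 304 CPM in untreated libraries, likewise with no overlap (log2 fold change -0.28 ± 0.06 SE, adjusted p = 0.0011). S288c in YM gave 322, 383, 375, 313 and 279.8 CPM in Cr41 libraries, against 447, 361, 371, 343 and 448 CPM in untreated libraries (log2 fold change -0.22 ± 0.11 SE, adjusted p = 0.087). Those groups overlapped and RRP9 was not called, but it was without Cr41 replicate 2 (adjusted p = 0.038). NSR1 (YGR159C), a nucleolin-like protein, had 234, 265, 298, 302 and 317 CPM in Cr41 libraries of S288c in WYF, against 227, 231, 222, 211 and 240.1 CPM in untreated libraries, and rose (log2 fold change 0.32 ± 0.08 SE, adjusted p = 0.0047). Treated replicate 1 lay within the untreated range and the other 4 lay above it. In S288c in YM it was not called, with 234, 269, 264, 272 and 228 CPM in Cr41 libraries, against 254, 231, 239, 192 and 311 CPM in untreated libraries (log2 fold change 0.06 ± 0.11 SE, adjusted p = 0.63). In RM11 in WYF it had the highest log2 fold change of the 53, 0.11 (adjusted p = 0.38), and was called without untreated replicate 5 (0.21, adjusted p = 0.018). KRR1, which binds the precursor of the small subunit, fell in S288c in YM (-0.68), in S288c in WYF (-0.30) and in RM11 in WYF (-0.22).

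The large subunit factors were the largest set, and 10 of 21 fell in S288c in YM and 14 of 21 in RM11 in WYF. In S288c in WYF 1 fell and 1 rose, and in RM11 in YM 1 rose. NOP2 (YNL061W), a methyltransferase of the large rRNA, had 469, 638, 616, 485 and 379.8 CPM in Cr41 libraries of S288c in YM, against 715, 597, 632, 542 and 877 CPM in untreated libraries (log2 fold change -0.36 ± 0.16 SE, adjusted p = 0.063). It was not called there, and the groups overlapped, but without Cr41 replicate 2 it was called (-0.46, adjusted p = 0.025), as it was without Cr41 replicate 3 (adjusted p = 0.041) or untreated replicate 4 (adjusted p = 0.037). NOP2 had 384, 343, 389, 358 and 332 CPM in Cr41 libraries of RM11 in WYF, against 463, 410.4, 415, 402 and 475 CPM in untreated libraries, with no overlap (log2 fold change -0.26 ± 0.06 SE, adjusted p = 0.0026).

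SPB4 and HAS1, DEAD-box RNA helicases, had the largest falls of the set in S288c in YM, together with MPP10. SPB4 (YFL002C), needed for maturation of the large subunit rRNA, had 32.4, 36.8, 45.04, 35.2 and 26.05 CPM in Cr41 libraries, against 109, 71.6, 80.98, 75.01 and 97.5 CPM in untreated libraries (log2 fold change -1.28 ± 0.15 SE, adjusted p = 1.1e-05). The highest treated value lay well below the lowest untreated value. SPB4 had 41.6, 41.3, 35.3, 36.8 and 43.1 CPM in Cr41 libraries of S288c in WYF, against 52.7, 57.98, 48.6, 101 and 85.8 CPM in untreated libraries (log2 fold change -0.81 ± 0.18 SE, adjusted p = 0.0026), again with no overlap, and untreated replicates 4 and 5 were the highest. SPB4 was still lower without untreated replicate 4 (-0.62, adjusted p = 0.0027). RM11 in WYF gave 38.5, 40.8, 45.98, 37.3 and 46.9 CPM in Cr41 libraries, against 53.04, 63.4, 62.4, 45.5 and 52.1 CPM in untreated libraries (log2 fold change -0.39 ± 0.10 SE, adjusted p = 0.0048), where treated replicates 3 and 5 lay above untreated replicate 4. RM11 in YM gave 61.6, 64.8, 44.5, 48.6 and 59.4 CPM in Cr41 libraries, against 48.02, 54.2, 41.99, 43.6 and 54.9 CPM in untreated libraries (log2 fold change 0.20 ± 0.12 SE, adjusted p = 0.29), with much overlap. HAS1 (YMR290C), a helicase used in both subunit pathways, had 112, 123, 94.7, 83.7 and 73.3 CPM in Cr41 libraries of S288c in YM, against 179, 147, 174, 139 and 234 CPM in untreated libraries (log2 fold change -0.83 ± 0.17 SE, adjusted p = 0.001). The groups did not overlap, and in S288c in WYF its log2 fold change was 0.12 (adjusted p = 0.38).

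NOP16 (YER002W), a constituent of early large subunit particles, varied most of all 53 genes. It had 8.74, 6.44, 7.69, 11.5 and 17.7 CPM in Cr41 libraries of RM11 in WYF, against 22.3, 37.2, 38.03, 15.5 and 17.5 CPM in untreated libraries (log2 fold change -1.33 ± 0.29 SE, adjusted p = 0.0022). The treated value of replicate 5 reached the untreated values of replicates 4 and 5, so the groups overlapped. It had 20.2, 19.4, 12.8, 10.5 and 18.6 CPM in Cr41 libraries of S288c in WYF, against 13.6, 16.6, 20.2, 57.1 and 39.2 CPM in untreated libraries (log2 fold change -0.85 ± 0.36 SE, adjusted p = 0.067). This was not called, and untreated replicates 4 and 5 carried the high values. Without untreated replicate 4 the value was -0.42 (adjusted p = 0.23). It was called without untreated replicate 1 (-1.03, adjusted p = 0.019) or untreated replicate 2 (-0.99, adjusted p = 0.041). It had 27.2, 35.3, 22.8, 20.5 and 23.00 CPM in Cr41 libraries of RM11 in YM, against 17.7, 19.3, 13.2, 21.3 and 21.5 CPM in untreated libraries (log2 fold change 0.46 ± 0.16 SE, adjusted p = 0.068). Without treated replicate 5 the value was 0.49 (adjusted p = 0.027). S288c in YM gave 55.8, 71.5, 78.1, 54.03 and 22.7 CPM in Cr41 libraries, against 100.1, 65.96, 63.8, 49.6 and 68.8 CPM in untreated libraries (log2 fold change -0.28 ± 0.28 SE, adjusted p = 0.38), a wide overlap with the lowest treated value in replicate 5.

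EBP2 (YKL172W), a nucleolar protein of the same pathway, fell in RM11 in WYF, with 94.99, 94.4, 93.5, 112 and 129 CPM in Cr41 libraries, against 157, 177, 184, 115 and 147 CPM in untreated libraries (log2 fold change -0.57 ± 0.12 SE, adjusted p = 0.0015). Treated replicate 5 lay above untreated replicate 4, so the groups overlapped. It had 159.6, 161, 124, 136 and 144 CPM in Cr41 libraries of S288c in WYF, against 120.4, 143, 164, 322 and 246 CPM in untreated libraries (log2 fold change -0.46 ± 0.22 SE, adjusted p = 0.1), and untreated replicate 4 was the highest of the 10. Without that library the value was -0.22 (adjusted p = 0.29), and without untreated replicate 1 it was -0.59 (adjusted p = 0.023). EBP2 had 149, 179, 131, 130.4 and 224 CPM in Cr41 libraries of RM11 in YM, against 124, 151, 116, 144 and 143 CPM in untreated libraries (log2 fold change 0.26 ± 0.14 SE, adjusted p = 0.24), and treated replicate 5 was the highest of the 10 there. NOP4 (YPL043W), an RNA-binding protein, fell in RM11 in WYF, with 73.03, 64.1, 67.04, 78.3 and 78.05 CPM in Cr41 libraries, against 91.3, 109.8, 119.8, 77.9 and 113 CPM in untreated libraries (log2 fold change -0.50 ± 0.11 SE, adjusted p = 0.0018). Untreated replicate 4 lay within the treated range.

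The GTPase gene NOG1 (YPL093W) rose in S288c in WYF, with 623, 700.4, 802, 820.0 and 818 CPM in Cr41 libraries, against 585, 578, 594, 502 and 698 CPM in untreated libraries (log2 fold change 0.35 ± 0.10 SE, adjusted p = 0.0096). Treated replicate 1 lay below untreated replicate 5. MAK16 (YAL025C), a factor of early large subunit particles, had 87.7, 108, 92.2, 101 and 132 CPM in Cr41 libraries of RM11 in YM, against 60.5, 86.8, 68.8, 89.00 and 82.2 CPM in untreated libraries (log2 fold change 0.42 ± 0.13 SE, adjusted p = 0.04). Treated replicate 1 lay below untreated replicate 4, and the call was lost without Cr41 replicate 2 or 4, or without untreated replicate 1, 3 or 5, with an adjusted p of up to 0.10. NOP7 (YGR103W), which forms a complex with ERB1 and YTM1, was the lowest of the 53 in RM11 in YM, with 213, 201, 200.4, 203 and 283 CPM in Cr41 libraries, against 248, 235, 268, 233 and 316 CPM in untreated libraries (log2 fold change -0.24 ± 0.11 SE, adjusted p = 0.18). Without treated replicate 5, the highest of its group, NOP7 was lower at -0.36 (adjusted p = 0.0028).

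**Figure D5:**
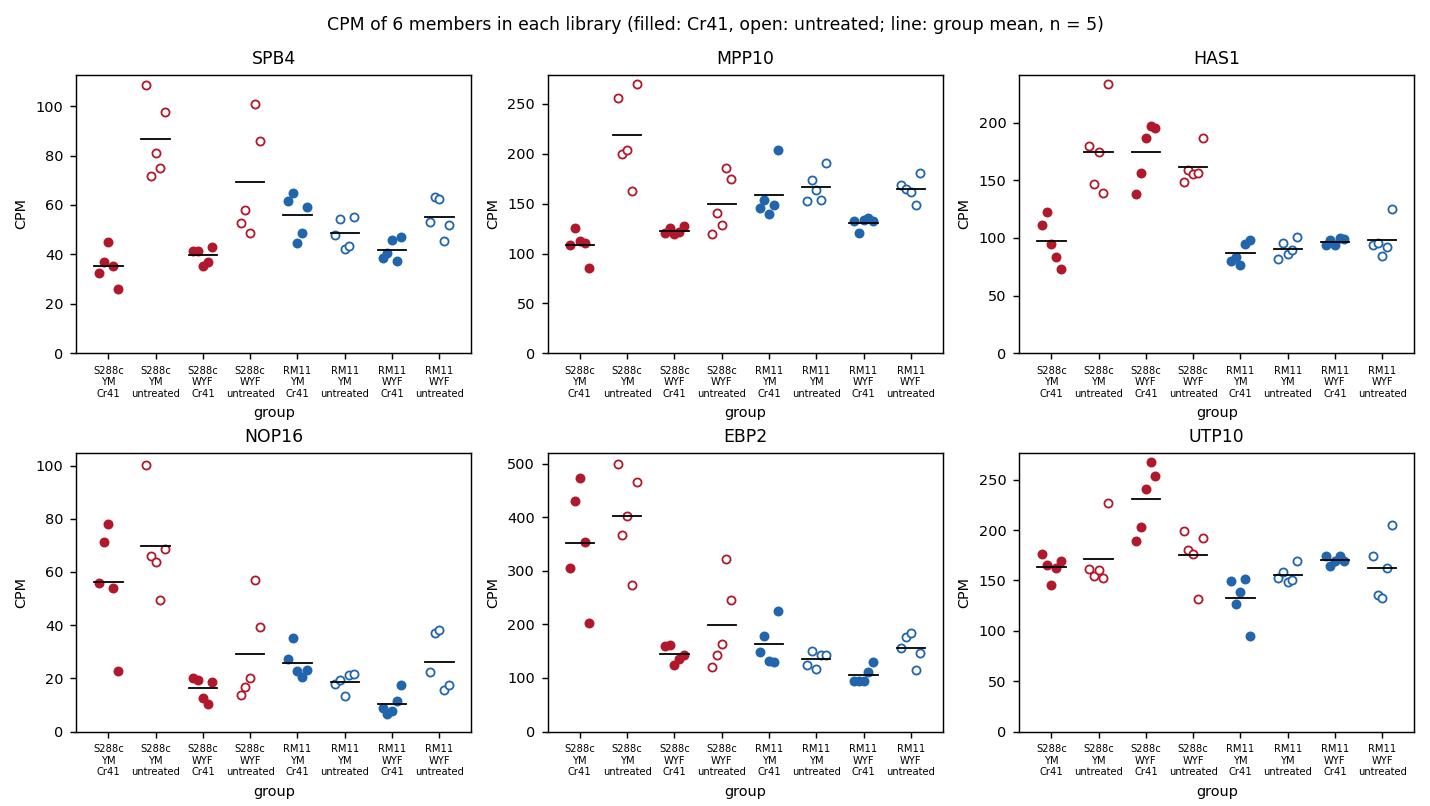
CPM of selected genes in each library (points, linear axis) with group means, for S288c and RM11 in YM and in WYF, Cr41 left of untreated. SPB4 and MPP10 are lower with Cr41 in S288c in YM without overlap, and NOP16 has the widest range of group means as a fold.

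Whether Cr41 acted differently in the strains was tested as an interaction, the S288c log2 fold change minus that of RM11. In YM, 28 of 53 genes had a lower response in S288c and 0 a higher one, against 28.4% of 5795 transcripts lower and 25.7% higher, and the median interaction was -0.43, against -0.0044 for all transcripts. The extremes were SPB4 at -1.49 ± 0.20 (SE, adjusted p = 1.8e-06) and UTP10 at 0.18. MPP10 followed SPB4 at -0.92 (adjusted p = 0.0002), and IMP4 (0.08, adjusted p = 0.72) followed UTP10. IMP4 was called without the libraries of replicate 5 (0.29, adjusted p = 0.045). The count rested in part on single libraries. It was 18 lower without RM11 YM Cr41 replicate 5, of which 16 were among the 28, and 19 without S288c YM Cr41 replicate 4. It was 11 with the 4 libraries of replicate 1 left out, and 16 with those of replicate 5 left out, when the median was -0.20. With a minimum of 10 counts in every library the count was 18.

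In WYF the sign of the interaction was the opposite. 13 of 53 genes had a higher response in S288c and 0 a lower one, against 15% of 5669 transcripts higher and 20.1% lower, and the median was 0.23, against 0.0007 for all transcripts. GAR1 had the largest called interaction among the named genes at 0.44 (adjusted p = 0.00012), where NOP16 was at 0.49 (adjusted p = 0.51). The lowest were SPB4 at -0.40 (adjusted p = 0.18) and RPF1 at -0.19 (adjusted p = 0.66), neither of them called. Without S288c WYF untreated replicate 4, RPF1 was at 0.04 and NOP16 at 0.92. With the libraries of 1 replicate number left out, the count of 13 became 4 (number 3), 6 (number 2) or 7 (numbers 1 and 5), and without S288c WYF untreated replicate 4 it was 13. A single fit over all 40 libraries called 6, and limma on log2(TPM + 1) called 1.

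The medium by Cr41 interaction, the YM log2 fold change minus that of WYF, was tested within each strain, with medium and lane together. In S288c, 22 of 53 genes had a lower response in YM and 0 a higher one, against 19.6% of 5754 transcripts lower and 21.4% higher, and the median was -0.41, against 0.05 for all transcripts. The values ran from -0.94 for HAS1 (adjusted p = 0.00088) to 0.57 for NOP16 (adjusted p = 0.37), which was at 0.14 without S288c WYF untreated replicate 4 (adjusted p = 0.82). With the libraries numbered 3 left out, 14 genes were lower. In RM11 the sign was the other way. There 10 of 53 genes had a higher response in YM and 0 a lower one, against 6.1% of 5545 transcripts higher and 5.12% lower, with a median of 0.20, against -0.02. NOP16 had the largest value at 1.77 (adjusted p = 0.0045), a call lost with the libraries numbered 2 (1.35, adjusted p = 0.07) or 3 (1.44, adjusted p = 0.051) left out. Without RM11 YM Cr41 replicate 5 there were 13 higher, and with the libraries numbered 1, 2 or 3 left out there were 2, 1 and 1. A single fit over all 40 libraries called 4. The comparisons of S288c in YM, the 2 interactions that contain it and the untreated comparisons below share the same 5 untreated S288c YM libraries, and the other interactions and untreated comparisons share libraries in the same way.

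The strains were compared without Cr41 as S288c over RM11. In YM, 50 of 53 genes were higher in S288c and 0 lower, against 36.2% of 5608 transcripts higher and 35.3% lower. The median was 0.73, against -0.0015 for all transcripts. For 45 genes all S288c libraries lay above all RM11 libraries (30.2% of all transcripts), and 11 genes were at least 2-fold higher (6.72% of all transcripts). All 21 large subunit factors were higher, 9 of them by at least 2-fold, and the genes not called were CBF5, NHP2 and UTP10. NOP16 had 100.1, 65.96, 63.8, 49.6 and 68.8 CPM in S288c, against 17.7, 19.3, 13.2, 21.3 and 21.5 CPM in RM11 (log2 fold change 1.88 ± 0.17 SE, adjusted p = 6.2e-07). The lowest S288c value was above the highest RM11 value.

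In WYF fewer of the genes were called. Of 53 genes, 11 were higher in S288c and 4 lower, against 26.7% of 5604 transcripts higher and 27.5% lower, and the median was 0.13, against 0.0010 for all transcripts. Lower were GAR1, CBF5 and NHP2, the 3 box H/ACA genes, and BRX1. CBF5 had 197, 224, 213, 325 and 252 CPM in S288c, against 401, 379, 391, 354 and 421 CPM in RM11 (log2 fold change -0.69 ± 0.11 SE, adjusted p = 0.00021). No S288c value reached the lowest RM11 value, and S288c replicate 4 was the closest. Without it the value was -0.81 (adjusted p = 9.6e-07). The highest value was that of RPF1 (0.79, adjusted p = 0.014), a nucleolar factor of large subunit assembly, which was at 0.56 (adjusted p = 0.031) without S288c replicate 4 and at 0.42 (adjusted p = 0.05), not called, with all libraries numbered 4 left out. With the libraries of replicate number 2, 3 or 4 left out, 7, 6 and 7 genes were higher, and limma on log2(TPM + 1) called 26 higher. Whether the strain difference itself differed between the media was not tested.

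The media were compared without Cr41 as WYF over YM. In S288c, 38 of 53 genes were lower in WYF and 0 higher, against 20.6% of 5581 transcripts lower and 20% higher, and the median was -0.51, against -0.0082 for all transcripts. For 18 genes all WYF libraries lay below all YM libraries (12.6% of all transcripts), and NOP16 and EBP2 fell by at least 2-fold (0.878% of all transcripts). EBP2 had 120.4, 143, 164, 322 and 246 CPM in WYF, against 500.2, 367, 403, 274 and 465 CPM in YM (log2 fold change -1.01 ± 0.25 SE, adjusted p = 0.0061). WYF replicates 4 and 5 were the highest of that group, and without WYF replicate 4 the value was -1.25 (adjusted p = 0.00055). NOP16 was at -1.23 (adjusted p = 0.012), and its call was lost with the libraries numbered 1 (adjusted p = 0.06) or 3 (adjusted p = 0.051) left out. With the libraries numbered 1 or 3 left out, 24 genes were lower. In RM11, 16 of 53 genes were higher in WYF and 0 lower, against 13.2% of 5499 transcripts higher and 13.2% lower, with a median of 0.17, against 0.0039. For 6 genes all WYF libraries lay above all YM libraries (9.58% of all transcripts). The count of 16 became 7 with the libraries numbered 1 left out and 9 with those numbered 3 left out. As the media were sequenced in separate lanes, these counts cannot be told apart from lane differences, and whether the change differed between the strains was not tested.

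Related gene lists, chosen from general knowledge of yeast, were measured in the same fits. In S288c in YM with Cr41, where 34.2% of all transcripts fell and 33% rose, 51 of 96 other ribosome biogenesis factors fell and 2 rose (median -0.38), and of the ribosomal proteins 69 of 81 of the large subunit fell and 3 rose (median -0.45), and 45 of 56 of the small subunit fell and 0 rose (median -0.61). In RM11 in WYF, where 17.8% of all transcripts fell and 17.8% rose, 55 of 96 other biogenesis factors fell and 0 rose (median -0.24), while 24 of 81 large subunit and 18 of 56 small subunit ribosomal proteins fell. In RM11 in YM, where 7.28% of all transcripts fell and 7.99% rose, 37 of 81 large subunit and 28 of 56 small subunit ribosomal proteins fell and 0 rose, beside 2 of 96 other biogenesis factors lower and 1 higher. In S288c in WYF, 10 of 96 other biogenesis factors fell and 7 rose, where 25.4% of all transcripts fell and 22.7% rose. Of the genes of RNA polymerase I and its factors in S288c in YM, 6 of 16 (37.5%) fell, near the share of all transcripts. In that list 3 rose (18.8%), below the 33% of all transcripts. Of the RNA polymerase III genes, 7 of 10 (70%) fell and 0 rose in S288c in YM. Of 15 regulators of ribosome genes, 5 rose (33.3%) and 4 fell (26.7%) in S288c in YM, again near the share of all transcripts, 6 rose and 2 fell in S288c in WYF, 0 were called in RM11 in YM (1 at an unadjusted p under 0.05), and 8 rose and 2 fell in RM11 in WYF.

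General stress genes moved opposite to the 53 genes in some comparisons but not in all. Their summed level was 32762 to 40093 TPM in Cr41 libraries of S288c in YM, against 5891 to 8420 TPM in untreated libraries, and 18 of 20 rose and 0 fell. In S288c in WYF 19 of 20 rose, with 36484 to 44111 TPM in Cr41 libraries, against 18155 to 22434 TPM in untreated libraries. In RM11 in WYF 15 of 20 rose and 1 fell, with 18194 to 20223 TPM in Cr41 libraries, against 11522 to 12628 TPM in untreated libraries. RM11 in YM had 11 of 20 higher and 4 lower, with 13080 to 18682 TPM in Cr41 libraries, against 7498 to 9292 TPM in untreated libraries. Without Cr41, 15 of 20 were lower and 2 higher in S288c than in RM11 in YM, and all 20 were higher in WYF than in YM in S288c. In S288c against RM11 in WYF, 11 stress genes were higher and 6 lower. Of the 53 genes, 11 were higher there (20.8%, below the 26.7% of all transcripts) and 4 lower. In RM11 in WYF against YM, 9 stress genes were higher and 3 lower. Of the 53 genes, 16 were higher there (30.2%, against 13.2% of all transcripts) and 0 lower. The part of the stress genes in the values of the 53 genes was not tested.

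The upstream words of the 53 genes were nearly uniform, so they separated few classes. In S288c in YM, the 47 genes with both PAC and RRPE had a median log2 fold change of -0.39 and 27 of them fell, the 4 with PAC alone had a median of -0.51 and 3 fell, and the 2 with RRPE alone had a median of -0.31 and 1 fell. In RM11 in WYF the same classes had medians of -0.23 (27 fell), -0.30 (3 fell) and -0.14 (1 fell). The classes were read from the R64 genome, which is that of S288c, and the words were not looked for in RM11 promoters. Of all transcripts, 34.2% fell in S288c in YM and 17.8% in RM11 in WYF. Classes of 4 and 2 genes are too small to be compared with the larger one. Both words were also in 67.7% of the promoters of the 96 other biogenesis factors and 70% of those of 10 RNA polymerase III genes, but in 0 of 56 promoters of small subunit ribosomal proteins, 1.23% of 81 of large subunit proteins and 0 of 20 of stress genes.

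The libraries of a group differed in the level of the 53 genes as a whole. The median score, the median of the genes' log2 CPM after each gene's mean over 40 libraries was subtracted, averaged 0.12 ± 0.19 in Cr41 libraries of S288c in YM and 0.52 ± 0.24 in untreated ones (SD, n = 5 each). It averaged 0.04 ± 0.09 in Cr41 libraries of S288c in WYF and 0.07 ± 0.16 in untreated ones. In RM11 in YM the averages were -0.22 ± 0.15 with Cr41 and -0.22 ± 0.10 untreated, where Cr41 replicate 5 was at 0.04 and the other 4 treated libraries were between -0.31 and -0.23. They were -0.25 ± 0.05 with Cr41 and -0.05 ± 0.14 untreated in RM11 in WYF. Replicate 5 held the highest value for 49 of 53 genes in untreated S288c in YM, for 47 in untreated RM11 in YM, for 44 in untreated RM11 in WYF, for 41 in RM11 YM Cr41, for 29 in S288c WYF Cr41 and for 30 in untreated S288c in WYF. It held the lowest value for 44 genes in S288c YM Cr41 and for 21 in RM11 WYF Cr41. Replicate 4 was the lowest for 49 genes in untreated S288c in YM. The genes thus moved together from library to library, and the 53 are not 53 separate measurements of a condition.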

How the data were processed

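The 40 libraries were made with a ScriptSeq yeast kit from hot-phenol RNA and sequenced as paired-end reads. The authors estimated counts with Salmon 0.13.1 against an S288c transcriptome, for both strains, and deposited the estimated count and the TPM of each of 6661 transcripts, without normalization between libraries. The transcriptome release and the Salmon options are not given in the sources used here. Counts were rounded and fitted with edgeR 4.0.16 (in R 4.3.3), using its filterByExpr function, TMM factors and the quasi-likelihood F test, and called at a Benjamini-Hochberg adjusted p under 0.05. Each 2-group comparison was fitted on its 10 libraries and each interaction on 20. The steps were tested on simulated counts.

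The genes, lists and tests were chosen with earlier results of these data known. Genes given per library were the first of each complex, the 3 highest and 3 lowest of each Cr41 comparison and the 2 extremes in each direction of each strain interaction. Others were chosen after their values were seen. The lists were other biogenesis factors, ribosomal proteins, RNA polymerase I and III, regulators of ribosome genes, general stress genes, and strain and mating-type markers. Alternatives were DESeq2 1.42.0, RLE factors, limma 3.58.1 on log2(TPM + 1) and log2(TPM + 0.1), no filter, at least 10 counts in every library, a single fit, a replicate block, stricter thresholds and leaving out replicates. Counts under these alternatives are mostly given without the share of all transcripts in the same setting. Totals of 4224356 to 7866046 counts limit the precision of genes with few counts. Of the transcripts, 668 had no match in the RefSeq R64 annotation.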

Additional observations from a re-analysis of the deposited data

Results flagged for a closer look

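Among 184 sets of 5 libraries (22 named genes and the median score in 8 groups), 17 held a value far from the other 4 by Dixon's criterion of 0.71 for 5 values, where chance gives about 1 in 20, or 9.2. Replicate 5 of RM11 YM Cr41 gave 6 of them, all high. These were the median score at 0.0418, MPP10 at 204.0 CPM, NOP2 at 550.3 CPM, CBF5 at 494.8 CPM, IMP4 at 51.38 CPM and NOP7 at 283.1 CPM. Replicate 5 was also high in untreated S288c in YM for NOP1 (315.2 CPM), UTP10 (227.0 CPM) and UTP8 (108.8 CPM). In untreated RM11 in YM it was high for NOG1 (514.5 CPM) and UTP8 (57.19 CPM), and in untreated RM11 in WYF for RRP9 (303.9 CPM), HAS1 (125.1 CPM) and IMP4 (61.74 CPM). In untreated S288c in WYF, replicate 5 was high for HAS1 (186.3 CPM) and replicate 4 low for NOP1 (140.8 CPM). In RM11 WYF Cr41, replicate 2 was low for MPP10 (121.0 CPM).

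For part of the 53 genes, the response to Cr41 differed between the strains, or between the media within a strain, by edgeR's test of the interaction. In YM, 28 of 53 genes had a lower response in S288c than in RM11, against 28.4% of all transcripts. SPB4 was at -1.49 (adjusted p = 1.8e-06) and MPP10 at -0.92 (adjusted p = 0.0002). In WYF, 13 of 53 had a higher response in S288c than in RM11, against 15% of all transcripts, with GAR1 at 0.44 (adjusted p = 0.00012). Between media, 22 of 53 had a lower response in YM than in WYF in S288c, against 19.6% of all transcripts. In RM11, 10 of 53 had a higher response in YM than in WYF, against 6.1% of all transcripts. With libraries left out, these counts fell to as few as 11, 4, 14 and 1.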

How the results depend on the processing

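Among the genes followed by name in each comparison, none that was called changed direction. The direction of the other genes was not checked in this way. With an adjusted p under 0.01, the Cr41 counts were 20 lower in S288c in YM, 2 higher and 2 lower in S288c in WYF, and 0 higher in RM11 in YM. The strain interactions gave 11 lower in YM and 2 higher in WYF, and the medium interactions 12 lower in S288c and 2 higher in RM11. The strain comparison in WYF gave 5 higher, and the media gave 23 lower in S288c and 7 higher in RM11. With a change of at least 2-fold required, the counts were 1 lower in S288c in YM, 0 higher and 0 lower in S288c in WYF, 0 higher in RM11 in YM and 1 lower in RM11 in WYF. The interactions gave 1 lower (strain, YM), 0 higher (strain, WYF), 0 lower (medium, S288c) and 1 higher (medium, RM11). The untreated comparisons gave 11 higher (strains, YM), 0 higher and 0 lower (strains, WYF), 2 lower (media, S288c) and 0 higher (media, RM11). A single fit over all 40 libraries gave 3 lower in S288c in WYF, 0 higher in RM11 in YM, 13 lower in RM11 in WYF, 6 higher for the strain interaction in WYF, 4 higher for the medium interaction in RM11, and between media 1 higher in S288c and 10 higher in RM11. In both limma fits on log2 TPM, S288c in WYF had 2 higher, RM11 in YM 0 higher, the strain interaction in WYF 1 higher and the strain comparison in WYF 26 higher. RLE factors gave 3 lower in S288c in WYF, DESeq2 gave 2 higher in RM11 in YM, and a minimum of 10 counts gave 18 lower for the strain interaction in YM. The cause was not tested for any of these. For most settings in this section the share of all transcripts is not given, and it can change with the threshold and method. The counts are thus not to be read against the shares of the main fits. On log2(TPM + 1), the median of all transcripts shifted to -0.14 in S288c in YM, so that falls there are relative to that value.

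In 92 fits without one library or replicate number, the counts ranged, as higher then lower, from 0 to 0 and from 26 to 36 in S288c in YM, 3 to 8 and 3 to 10 in S288c in WYF, 0 to 2 and 0 to 5 in RM11 in YM, and 0 to 1 and 28 to 33 in RM11 in WYF. The strain interaction ranged from 0 to 1 and 11 to 29 in YM and from 4 to 13 and 0 to 0 in WYF, and the medium interaction from 0 to 0 and 14 to 23 in S288c and from 1 to 14 and 0 to 0 in RM11. The strain comparison ranged from 48 to 50 and 0 to 0 in YM and from 6 to 12 and 3 to 4 in WYF, and the media from 0 to 0 and 24 to 42 in S288c and from 7 to 22 and 0 to 0 in RM11. The fits of the interactions and untreated comparisons without RM11 YM Cr41 replicate 5, S288c WYF untreated replicate 4, S288c YM Cr41 replicate 4 or RM11 WYF untreated replicate 2 alone were chosen after seeing the data.

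The replicate numbers were not taken to pair the libraries, since same-numbered deviations over all transcripts correlated between -0.382 and 0.565 and no comparison had every pair above 0.1. Over the 53 genes alone, replicate 5 was nevertheless the highest library for most genes in 6 of the 8 groups and the lowest for most in S288c YM Cr41. With the replicate block, 27 genes were lower in S288c in YM, 4 higher and 5 lower in S288c in WYF, 1 higher and 1 lower in RM11 in YM, and 29 lower in RM11 in WYF. The blocked strain interactions gave 26 lower in YM and 12 higher in WYF, the medium interactions 22 lower in S288c and 12 higher in RM11, the strains 51 higher in YM and 14 higher and 4 lower in WYF, and the media 40 lower in S288c and 21 higher in RM11.

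Depth limits low transcripts such as IMP3 and NOP16. Strain differences in mapping, RNA quality and lane effects were not tested, and amounts of RNA per cell were not measured.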
